A study of Bos taurus with 24 samples.

Results

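The miR-183 cluster is a group of 3 neighbouring miRNA genes that are transcribed together in mammals. All 3 bovine members, bta-miR-183, bta-miR-96 and bta-miR-182, were taken by name from a table of 870 miRNAs. The table came from small-RNA sequencing of plasma, and the members were chosen with earlier results of these data known. The libraries came from 8 young, non-pregnant Holstein-Friesian heifers whose oestrus had been synchronised with a progesterone insert, buserelin (a GnRH analogue) and cloprostenol (a prostaglandin analogue). Each heifer was bled on the first day of observed oestrus (Day 0) and again on Days 8 and 16, when a corpus luteum is present. This gave 8 libraries for each Day and 24 in all, and every comparison of Days was made within animals. The synchronisation treatment was common to all of them, and no unsynchronised group was analysed here.

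In mammals the cluster is best known from sensory organs, where its members are abundant in photoreceptors of the retina and hair cells of the inner ear, and changes in the miR-96 gene cause hearing loss in humans and mice. In the cow it is also known from granulosa cells, the cells that surround the oocyte in the follicle, where its members act on the transcript of FOXO1, a transcription factor that restrains cell division. The 3 mature miRNAs have similar but not identical seeds, the stretch near the 5′ end that pairs with target transcripts. miR-1271, which lies elsewhere in the genome, has the same seed as miR-96.

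In the deposited table all 3 members lie on the minus strand of chromosome 4. Mature miR-183 is at chr4:96835969-96835991 and mature miR-96 at chr4:96835746-96835768, with 200 bases between them. Mature miR-182 is at chr4:96831247-96831270, a further 4475 bases away, so the cluster spans 4745 bases and is read in the order miR-183, miR-96, miR-182. The table names no genome build for these positions. In the RefSeq annotation of the assembly ARS-UCD2.0 the 3 genes follow each other with no other gene between them. The nearest protein-coding gene listed on the miR-182 side is NRF1, a transcription factor of nuclear genes for mitochondrial proteins.

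The libraries held 2278035 to 6194402 genome-mapped reads and 1299679 to 4700764 miRNA counts. The level of a miRNA is given in RPMM, its count scaled by the authors to the genome-mapped reads of the library. miR-486, an erythrocyte miRNA, took 6.07% to 45.1% of the miRNA counts of a library. The summed RPMM of 7 erythrocyte miRNAs was 61417 to 410056 on Day 0 (median 182957), 97461 to 322197 on Day 8 (median 165868) and 131701 to 428350 on Day 16 (median 263314). Plasma mixes RNA from many tissues, so fewer releasing cells and less miRNA released per cell cannot be told apart.

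The 3 members differed widely in plasma. The mean level over all 24 libraries was 42.8 ± 19.0 RPMM for miR-182 (SD, n = 24 libraries), 3.66 ± 1.73 for miR-183 (n = 24) and 0.502 ± 1.92 for miR-96 (n = 24). By mean RPMM, miR-182 ranked 174, miR-183 ranked 290 and miR-96 ranked 411 of the 870 miRNAs. Together they made up 4741 of all miRNA counts, or 0.00650%. Of those 4741 counts, miR-182 took 4326 (91.2%), miR-183 took 354 (7.47%) and miR-96 took 61 (1.29%). All 3 mature miRNAs are of nearly equal length, so their counts can be compared without a length correction, although ligation bias in library preparation can differ between sequences.

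miR-182 was the dominant member in every library. Its share of the cluster's counts was 77.7% to 94.3% on Day 0 (median 92.4%), 86.0% to 95.7% on Day 8 (median 92.3%) and 86.0% to 94.1% on Day 16 (median 91.3%). The lowest share, 77.7%, was that of heifer 21 on Day 0, the library in which miR-96 was high. For every read of miR-183 a library held 6.13 to 34.9 reads of miR-182 (median 11.3, n = 24). The highest ratio, in heifer 25 on Day 8, rested on 7 counts of miR-183, and the lowest, in heifer 34 on Day 16, on 23 counts.

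**Figure D1:**
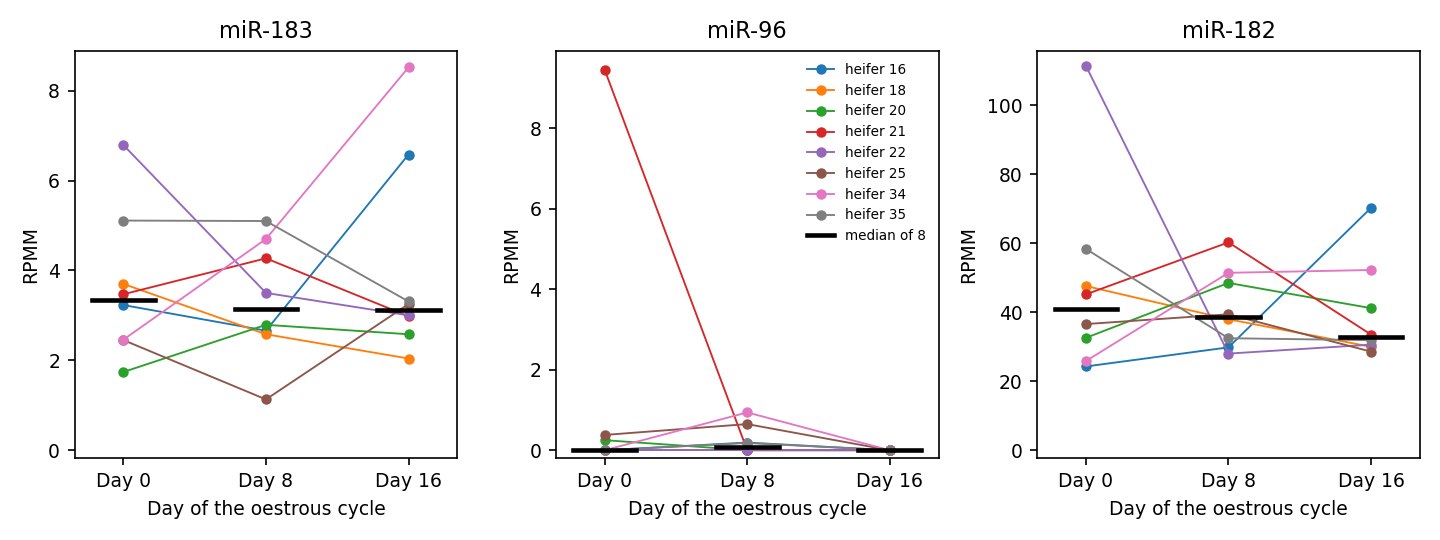
Level of each cluster member (RPMM, linear axes that differ between panels) on Days 0, 8 and 16, with a coloured line for each of the 8 heifers and a black bar at the median of each Day. The Days overlap for miR-182 and miR-183, heifer 22 stands highest for miR-182 on Day 0 at 111 RPMM, and miR-96 is near 0 except in heifer 21 on Day 0 at 9.46 RPMM.

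miR-182, the member with most reads, did not change detectably between Days. It was measured at 24.3 to 111 RPMM on Day 0 (median 40.9), 27.99 to 60.2 RPMM on Day 8 (median 38.7) and 28.6 to 70.2 RPMM on Day 16 (median 32.7). The 3 ranges overlapped, with only heifer 22 on Day 0 above the highest library of the later Days, and the order of the medians, Day 0 above Day 8 above Day 16, was not one in which any neighbours differed beyond their spread. As means, Day 0 had 47.7 ± 28.2 RPMM (SD, n = 8 heifers), Day 8 had 40.96 ± 11.4 (n = 8) and Day 16 had 39.8 ± 14.6 (n = 8).

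miR-182 was the sole member abundant enough for the main comparison, which took the 181 miRNAs above 25 RPMM in at least 6 of 8 libraries on each Day. It passed that limit narrowly, with 7 of 8 libraries above 25 RPMM on Day 0 and 8 of 8 on Days 8 and 16. The test was the quasi-likelihood test of edgeR on raw counts after TMM scaling, which sets libraries on a common scale by the bulk of their miRNAs, with heifer as a block and an adjusted p under 0.1 as threshold. From Day 0 to Day 8 the log2 fold change of miR-182 was −0.20 (SE 0.27, n = 8 heifers, 95% interval −0.76 to 0.35, edgeR adjusted p = 0.716), where 2 of 181 miRNAs (1.1%) passed. From Day 0 to Day 16 it was −0.12 (SE 0.27, 95% interval −0.67 to 0.44, edgeR adjusted p = 0.847), where 0 of 181 (0%) passed. Between Days 8 and 16 it was 0.08 (SE 0.26, 95% interval −0.46 to 0.63, edgeR adjusted p = 0.974), where 0 of 181 (0%) passed.

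Day 0 set against the mean of Days 8 and 16 is the comparison that bears on oestrus itself. In it miR-182 had a log2 fold change of 0.16 (SE 0.23, 95% interval −0.32 to 0.64, edgeR adjusted p = 0.750), where 5 of 181 miRNAs (2.76%) passed. On the linear scale this interval runs from 0.80-fold to 1.56-fold, so smaller changes in either direction were not resolved. The overall effect of Day gave an edgeR adjusted p of 0.864, where 0 of 181 (0%) passed and 23 had an unadjusted p under 0.05. Of the 5 comparisons, 3 had no call among the 181 miRNAs in edgeR, with 26, 7 and 23 miRNAs at an unadjusted p under 0.05 (Day 16 against Day 0, Day 16 against Day 8 and overall). DESeq2 called 3, 0 and 8 in these comparisons and limma on log2(RPMM + 1) 0, 0 and 0. With the Day 0 library of heifer 21 left aside, edgeR called 14, 0 and 23 of the 181, and miR-182 was not among the calls.

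Single heifers moved in opposite directions. On the RPMM scale 5 of 8 heifers had more miR-182 on Day 8 than at oestrus, 3 of 8 had more on Day 16 than at oestrus, and in 5 of 8 oestrus exceeded the mean of the later Days. Heifer 22 fell from 111 RPMM on Day 0 to 27.99 on Day 8 and 30.6 on Day 16. Heifer 16 did the reverse, with 24.3 RPMM on Day 0, 29.8 on Day 8 and 70.2 on Day 16. In heifer 25 the level stayed between 28.6 and 39.4 RPMM on all 3 Days, the smallest range of any heifer (1.38-fold).

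The Day 0 library of heifer 22 set the sign of the Day 0 comparisons for miR-182. With that library left aside, a choice made after its value was seen, the log2 fold change was 0.03 from Day 0 to Day 8 and 0.17 from Day 0 to Day 16, and Day 0 stood at −0.10 against the later Days. No comparison passed the threshold with it or without it. That library was of ordinary depth (4271740 mapped reads), with miR-486 at 18.5% of its counts.

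**Figure D2:**
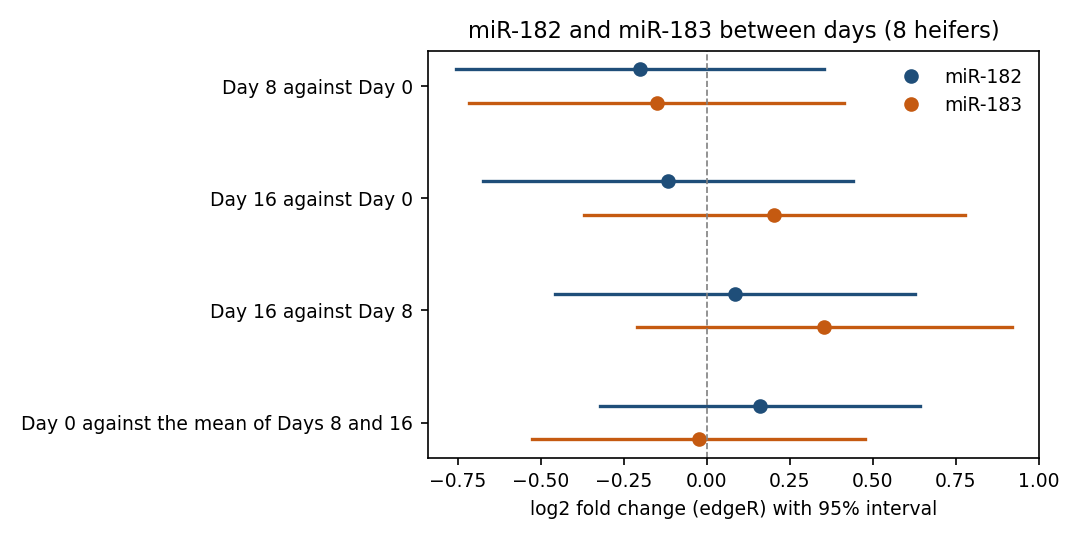
Log2 fold changes of miR-182 (blue, fit on 181 miRNAs) and miR-183 (orange, fit on 697 miRNAs) in 4 comparisons of Days over 8 heifers, with 95% intervals as lines. Every interval includes 0.

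miR-182 varied between libraries more than between animals. Counting alone gives a coefficient of variation of 7.21% on Day 0, 7.12% on Day 8 and 8.14% on Day 16, while the observed values of RPMM varied by 59.1%, 27.9% and 36.7% (n = 8 on each Day). After allowing for heifer and Day, the biological coefficient of variation estimated by edgeR was 35.5% for miR-182, against a median of 23.8% over the 181 miRNAs, where it ranked 164 from the least variable.

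Differences between heifers accounted for 6.40% of the variance of miR-182 on the log2(RPMM + 1) scale, the smallest share of any of the 181 miRNAs (median 47.6%). Values with no structure would give 30.4% with 8 heifers and 3 Days. Heifer means of miR-182 accordingly lay close together, from 34.8 RPMM in heifer 25 to 56.7 in heifer 22. Days accounted for 1.75% of its variance (median of the 181 miRNAs 8.36%, unstructured values 8.70%). These shares are descriptions, and no test was made of them.

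miR-183, the first member of the precursor, was measured at 7 to 29 counts per library. Its level was 1.74 to 6.79 RPMM on Day 0 (median 3.35), 1.13 to 5.10 RPMM on Day 8 (median 3.15) and 2.04 to 8.52 RPMM on Day 16 (median 3.13). The 3 Days overlapped, with medians closer than the spread within any Day. As means, Day 0 had 3.62 ± 1.63 RPMM (SD, n = 8 heifers), Day 8 had 3.34 ± 1.31 (n = 8) and Day 16 had 4.03 ± 2.27 (n = 8). Heifer 34 on Day 16 had the highest level, with an exact 95% Poisson interval of 5.40 to 12.8 RPMM, and heifer 25 on Day 8 the lowest, with 0.454 to 2.33 RPMM. These intervals cover counting error only.

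No library had miR-183 above 25 RPMM, so it was tested in a wider edgeR fit of all 697 miRNAs with at least 1 count. The log2 fold change was −0.15 from Day 0 to Day 8 (SE 0.28, n = 8 heifers, 95% interval −0.72 to 0.41, edgeR adjusted p = 0.908), where 1 of 697 miRNAs (0.143%) passed. From Day 0 to Day 16 it was 0.20 (SE 0.28, 95% interval −0.37 to 0.78, edgeR adjusted p = 0.939), where 3 of 697 (0.43%) passed. From Day 8 to Day 16 it was 0.35 (SE 0.28, 95% interval −0.21 to 0.92, edgeR adjusted p = 0.972), where 0 of 697 (0%) passed and 30 had an unadjusted p under 0.05. Day 0 against the mean of the later Days gave −0.03 (SE 0.25, 95% interval −0.53 to 0.48, edgeR adjusted p = 1), where 5 of 697 (0.717%) passed. The overall effect of Day had an edgeR adjusted p of 0.920, where 3 of 697 (0.43%) passed.

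Counting error weighed more on miR-183 than on miR-182. Counting alone gives a coefficient of variation of 26.6% on Day 0, 25.2% on Day 8 and 26.4% on Day 16, against observed values of 45.2%, 39.3% and 56.2% (n = 8 on each Day). Heifers accounted for 41.2% of its variance on the log2(RPMM + 1) scale and Days for 2.15%. Heifer means ran from 2.28 RPMM in heifer 25 to 5.23 in heifer 34. Heifer 34 had 2.46 RPMM on Day 0, 4.70 on Day 8 and 8.52 on Day 16, and heifer 22 had 6.79, 3.5 and 3.0 RPMM on the same Days.

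miR-182 and miR-183 tended to be high in the same libraries. Over the 24 libraries, which share heifers and depth, Pearson's r between their log2 RPMM was 0.59 and Spearman's rho 0.52. By Day, r was 0.82 on Day 0 (rho 0.79), 0.15 on Day 8 (rho 0.17) and 0.80 on Day 16 (rho 0.48), with n = 8 on each. In log2 RPMM the 2 libraries farthest from the median of miR-182 were heifer 22 on Day 0 and heifer 16 on Day 16. Without them r fell to 0.42 (n = 22), and on TMM-normalized CPM of all libraries it was 0.47 (n = 24). The values are given as a description. Heifer 22 on Day 0 was high for both, at 111 and 6.79 RPMM, and so was heifer 16 on Day 16, at 70.2 and 6.58 RPMM.

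**Figure D3:**
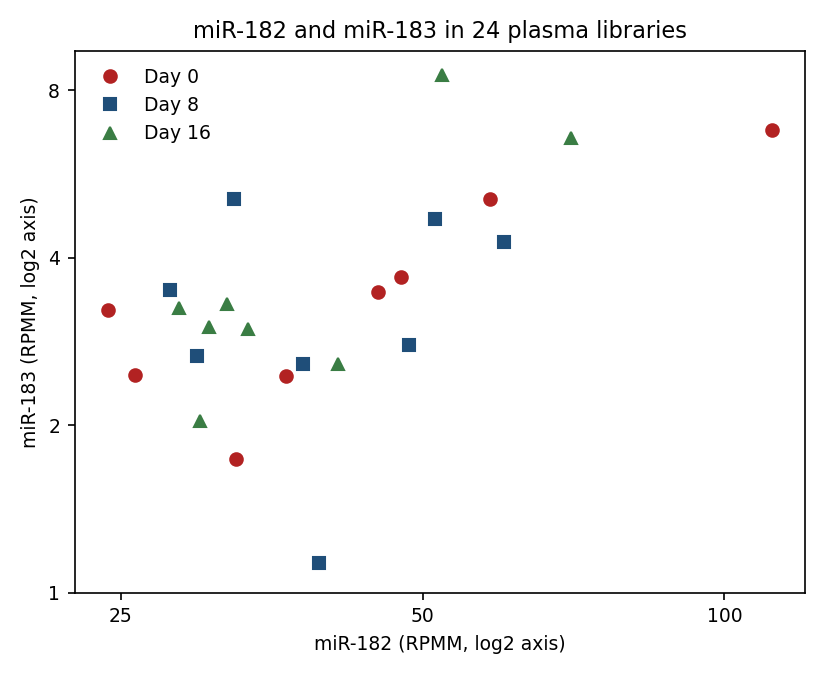
Level of miR-183 against that of miR-182 in the 24 libraries (RPMM, both axes log2), with a symbol for each Day. Pearson's r was 0.82 on Day 0, 0.15 on Day 8 and 0.80 on Day 16, where Spearman's rho was 0.48 and heifers 16 and 34 stand apart at the upper right.

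miR-183 tended to be lower in libraries with more red-cell miRNA, more weakly on TMM-normalized CPM than on RPMM. The ratio of miR-451, an erythrocyte miRNA, to miR-23a, which red cells do not enrich, is a usual gauge of haemolysis, and its log2 value ran from 0.34 to 4.07 over the 24 libraries. The mean log2 ratio was 1.82 on Day 0, 2.17 on Day 8 and 2.77 on Day 16. Ratio and Day can therefore not be fully told apart. Spearman's rho of the log2 ratio with RPMM was −0.55 for miR-183 and −0.15 for miR-182 (n = 24 libraries). Pearson's r with log2 RPMM was −0.44 and −0.17. Red-cell reads are part of the mapped reads to which RPMM is scaled. On TMM-normalized CPM, a scale set less by the most abundant miRNAs, rho was −0.43 for miR-183 and 0.06 for miR-182. Pearson's r on that scale was −0.27 and 0.08. With the ratio as a covariate in the edgeR fit, Day 0 against the later Days gave a log2 fold change of 0.19 for miR-182 (adjusted p = 0.674) and −0.05 for miR-183 (adjusted p = 1). Over all alternatives the adjusted p of this comparison ran from 0.496 to 0.955 for miR-182 and from 0.841 to 1 for miR-183.

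miR-96, the member tied to hearing, was almost absent from plasma except in a single library. The Day 0 library of heifer 21 held 49 of the 61 counts, at 9.46 RPMM. The other 23 libraries held 12 counts together, 17 of them had 0, and none had more than 4. On Day 0 the other 7 libraries gave 0 to 0.38 RPMM (3 counts in all), on Day 8 the level was 0 to 0.94 RPMM (9 counts in 4 of 8 libraries), and on Day 16 all 8 libraries were at 0. As a one-sided limit, a count of 0 allows up to 3 counts per library, or 0.511 to 1.32 RPMM on Day 16. The level in heifer 21 on Day 0 was 77.2 times that of the other 23 libraries pooled (exact 95% counting interval 40.4 to 159) and 10.1 times that of the next library, heifer 34 on Day 8 (3 counts, interval 3.24 to 50.4). That library was singled out because it was the highest for miR-96, so these intervals are no test. They cover counting error only, not the spread between libraries.

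In that library miR-96 took 49 of 301 cluster counts, or 16.3% (Wilson 95% interval 12.5% to 20.9%), against 0.270% (0.155% to 0.472%) of 4440 cluster counts in the others. These intervals too cover counting error only. The same heifer had 0 counts of miR-96 on Days 8 and 16. The wider edgeR fit gave miR-96 a log2 fold change of −4.53 from Day 0 to Day 16 (SE 1.37, adjusted p = 0.314) and of 2.79 for Day 0 against the later Days (SE 0.95, adjusted p = 0.294), neither past the threshold. Without the Day 0 library of heifer 21 these became −1.89 (adjusted p = 0.756) and 0.44 (adjusted p = 0.811). With every library kept, DESeq2 gave −1.70 (adjusted p = 0.996) and 0.84 (adjusted p = 0.999) in the same order. The values of limma on log2(RPMM + 1) were −0.52 (adjusted p = 0.696) and 0.39 (adjusted p = 0.760). A fitted value for a miRNA at 0 on Day 16 depends on the prior count and is no bound.

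miR-96 was high in that library without its cluster partners. miR-182 stood at 45.2 RPMM there, with 8 of the other 23 libraries higher, and miR-183 at 3.47 RPMM, with 9 of 23 higher. On Days 8 and 16 the same heifer had 60.2 and 33.5 RPMM of miR-182 and 4.27 and 2.98 RPMM of miR-183. The library had 5181968 mapped reads, within the range of the 24 libraries. Its miR-486 took 9.21% of the miRNA counts (median of the 24 libraries 21.8%), and its log2 ratio of miR-451 to miR-23a was 0.88 (median 2.46). The summed RPMM of 7 platelet miRNAs was 71552 there, the highest of the 24 (median 34806). Whether these traits bear on miR-96 was not tested.

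Besides miR-96, 3 other miRNAs had most of their counts in the Day 0 library of heifer 21. Among the 483 miRNAs with at least 20 counts in all, 4 had 50% or more of their counts in a single library, and for all 4 it was that library. They were miR-96 (80.3%), miR-184, known from the cornea and lens, at 83.0% (2722 of 3280 counts), miR-124a/b, a miRNA of neurons, at 68.3% (43 of 63), and miR-9-5p, a miRNA of neural progenitors and neurons, at 53.9% (158 of 293). The highest share of any other miRNA was 31.9%, that of the muscle miRNA miR-1 in heifer 35 on Day 8. By raw counts, which rise with depth, the same library was the highest of the 24 for 46 of the 483 miRNAs. The number that its depth alone would give was not worked out. Sorting the miRNAs by their share in a single library was chosen after the values of miR-96 had been seen.

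Levels in that library were 525 RPMM for miR-184, 30.5 for miR-9-5p and 8.30 for miR-124a/b. Elsewhere miR-184 lay between 1.13 and 16.0 RPMM (median 4.92, n = 23 libraries), miR-9-5p between 0.23 and 2.51 (median 1.48) and miR-124a/b between 0 and 0.80 (median 0). On Days 8 and 16 heifer 21 was within those ranges, with 3.42 and 2.73 RPMM of miR-184, 1.5 and 1.24 of miR-9-5p, and 0 and 0 of miR-124a/b. These 4 miRNAs were thus all low in the 2 later libraries of the same animal.

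Other miRNAs of sensory and neural tissue were not raised in the same way. Of 7 on the list, miR-204, a miRNA of retinal pigment epithelium and choroid plexus, was at 121 RPMM with 7 of 23 libraries higher, miR-211 at 13.5 RPMM with 4 higher, and miR-153 at 1.16 RPMM with 21 higher. miR-7 was highest there, but at 0.77 RPMM and 4 counts. Of the 6 epithelial miRNAs, which mark lining tissues, none was highest in that library, and miR-205, a miRNA of stratified epithelium, stood at 496 RPMM with 12 of 23 libraries higher. Their summed level was 1430 to 2654 RPMM on Day 0 (median 2328), where heifer 21 had the highest sum. It was 1581 to 3357 on Day 8 (median 2033) and 1355 to 3867 on Day 16 (median 2025). The part of these epithelial miRNAs in the levels of the cluster was not tested.

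**Figure D4:**
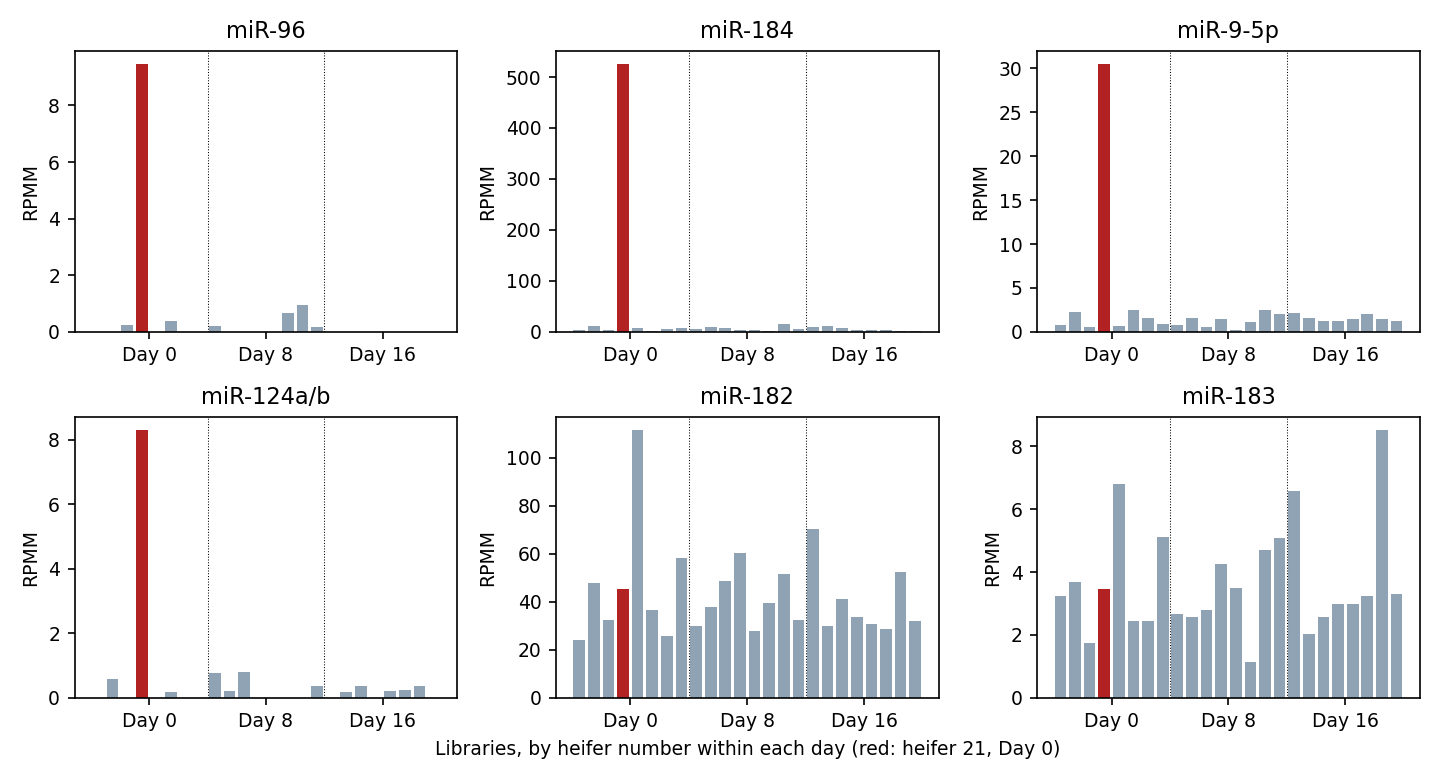
Level (RPMM, linear axes that differ between panels) of miR-96, miR-184, miR-9-5p, miR-124a/b, miR-182 and miR-183 in the 24 libraries, ordered by heifer number within each Day, with the Day 0 library of heifer 21 in red. The first 4 are high in that library alone (9.46, 525, 30.5 and 8.30 RPMM), whereas miR-182 and miR-183 are within the range of the others.

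miR-1271, which shares its seed with miR-96, was more abundant than miR-96 in all 24 libraries. It was measured at 2.49 to 18.3 RPMM on Day 0 (median 7.84), 4.19 to 34.3 on Day 8 (median 12.1) and 2.48 to 18.0 on Day 16 (median 4.75), and ranked 230 of 870 by mean RPMM. The Days overlapped, with the highest level in heifer 22 on Day 8. Day 16 was below Day 8 in 7 of 8 heifers, with a log2 fold change of −1.15 (SE 0.34, n = 8 heifers, 95% interval −1.84 to −0.46), but the difference did not pass the threshold in the wider edgeR fit (adjusted p = 0.945, unadjusted p = 0.00154). DESeq2 gave −1.13 (adjusted p = 1) and limma on log2(RPMM + 1) gave −1.10 (adjusted p = 0.681). The overall effect of Day on miR-1271 had an edgeR adjusted p of 0.422, or 0.107 with the Day 0 library of heifer 21 left aside. That library was chosen after its values were seen, and neither value passed the threshold.

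The miRNAs whose pattern was most like that of miR-182 were sought among the other 180 miRNAs of the main comparison. Likeness was measured as Pearson's r of log2 TMM-normalized CPM over the 24 libraries, which share heifers, and its median over the 180 was 0.05. It was highest for miR-107 (r = 0.64), miR-1388-3p (0.61), miR-103 (0.61), miR-22-5p (0.59) and miR-3604 (0.59). It was lowest for miR-339a (−0.60), miR-204 (−0.60) and miR-30c (−0.59). After removing heifer and Day means these values ranged from 0.67 to 0.71 for the first 5 and from −0.72 to −0.68 for the last 3. miR-107 and miR-103 differ at few bases and may share reads, since the authors allowed 1 mismatch.

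On the log2(RPMM + 1) scale the same 5 had r between 0.60 and 0.70, but the negative values shrank to −0.22 for miR-339a, −0.35 for miR-204 and −0.12 for miR-30c. On TMM-normalized CPM the 2 libraries farthest from the median of miR-182 were both of heifer 22 (Days 0 and 8). Without them the first 5 ranged from 0.49 to 0.68. No p-value is given for these correlations.

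Other miRNAs known to act on FOXO1 transcripts, as miR-182 and miR-96 do, were listed from general knowledge of human and mouse cells. Of 6 such miRNAs, 5 were in the main comparison. In edgeR 0 of them passed the threshold in any of the 5 comparisons, where 0% to 2.76% of all 181 miRNAs did. At an unadjusted p under 0.05, 2 of 5 were found for Day 0 against the later Days, miR-27a-3p (log2 fold change 0.37, SE 0.13, adjusted p = 0.155) and miR-139 (0.41, SE 0.15, adjusted p = 0.161). Over all 181 miRNAs, 31 (17.1%) had an unadjusted p under 0.05 in that comparison. DESeq2 called 2 of the 5 there, and 15 of all 181, and limma called 0 of the 5, and 3 of all 181. The median log2 fold change of the 5 was 0.03, beside −0.03 over all 181 miRNAs. The most abundant were miR-486, at −0.39 (adjusted p = 0.588), and miR-27b, at 0.03 (adjusted p = 0.865).

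Of 10 miRNAs known from ovarian follicles and corpora lutea, 5 were in the main comparison, and 0 passed the threshold in edgeR, DESeq2 or limma. Depending on the comparison, edgeR called 0% to 2.76% of all 181 miRNAs, DESeq2 0 to 15 of them and limma 0 to 3. For Day 0 against the later Days 2 of 5 had an unadjusted p under 0.05 in edgeR (17.1% of all 181 miRNAs did), and the median log2 fold change was 0.29, beside −0.03 over all 181 miRNAs. The most abundant of them were miR-21-5p (log2 fold change −0.05, SE 0.11, adjusted p = 0.812) and miR-143 (0.39, SE 0.25, adjusted p = 0.422), a miRNA of smooth muscle and stroma. miR-182, at 0.16 in the same comparison, lay between these values.

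Across the comparisons of Days, edgeR called 0% to 2.76% of the 181 miRNAs, DESeq2 0 to 15 of them and limma 0 to 3. Of the miRNAs that mark blood cells, 0 of 7 for erythrocytes, 0 of 7 for platelets and 0 of 7 for leukocytes passed the threshold in any comparison in edgeR, DESeq2 or limma. Their median log2 fold changes for Day 0 against the later Days were −0.26, −0.12 and −0.15, beside −0.03 over all 181 miRNAs. In edgeR 0, 0 and 0 of them had an unadjusted p under 0.05 there (17.1% of all 181 did), and in DESeq2 0, 0 and 1. For Day 16 against Day 0, all 7 erythrocyte miRNAs had a log2 fold change above 0 (median 0.46, beside 0.003 over all 181), and 2 of 7 had an unadjusted p under 0.05 in edgeR (14.4% of all 181 did). For Day 16 against Day 8 all 7 erythrocyte miRNAs were again above 0 (median 0.34, beside 0.001). There 0 of 7 had an unadjusted p under 0.05 in edgeR (3.87% of all 181 did) and 2 of 7 in DESeq2. The DESeq2 share of all 181 at that unadjusted p is not given here for any comparison, so the DESeq2 counts have no background. At the adjusted threshold DESeq2 called 0 of 181 for Day 16 against Day 8. These comparisons share the Day 16 libraries. Of the epithelial miRNAs 4 of 6 were tested and 0 passed in edgeR, DESeq2 or limma, and for Day 0 against the later Days 1 of 4 had an unadjusted p under 0.05 (17.1% of all 181 did), with a median of −0.14. miR-204, the one sensory and neural miRNA besides the cluster above the limit, had a log2 fold change of −0.27 (SE 0.28, edgeR adjusted p = 0.600).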

How the data were processed

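Plasma was prepared from EDTA blood by centrifugation, first against cells and then against debris and platelets. RNA was extracted with TRIzol LS, and TruSeq small-RNA libraries were sequenced as single-end reads. The authors matched reads to bovine and human mature miRNAs of miRBase with sRNAbench and Bowtie 0.12.9, allowing 1 mismatch, so near-identical miRNAs may share reads. The authors deposited raw counts and RPM values, called RPMM, which are counts scaled to the genome-mapped reads. A count divided by its RPMM gave the mapped reads of a library. All 24 libraries entered each fit, and 0 per-sample columns were left unused.

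Counts were tested with edgeR 4.0.16 in R 4.3.3 (TMM, terms for day and heifer, quasi-likelihood test, Benjamini-Hochberg adjustment, threshold 0.1), on 181 miRNAs above 25 RPMM in at least 6 of 8 libraries of each day and, for miR-183, on 697 with at least 1 count. edgeR gives no SE, so that printed is the log2 fold change over the square root of F. The block rests on the animals: after removing day means, libraries of the same heifer had a median correlation of 0.34 over the 181 miRNAs (24 pairs), against −0.04 between heifers. Heifers are biological replicates. Both edgeR fits were also run on counts simulated from their own estimates, for Day 0 against the later Days only. The outcome is not given here, and the alternatives were not simulated. Other values used Python 3.11.15, numpy 2.4.6, pandas 2.3.3 and scipy 1.17.1, and plots matplotlib 3.10.9.

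Alternatives were DESeq2 1.42.0, limma 3.58.1 on log2(RPMM + 1) and log2(RPMM + 0.1), a repeated-measures test, an exact test over 256 sign changes, RLE and total-count scaling, the same without miR-486, no limit on low counts, filterByExpr, no block, the miR-451 to miR-23a ratio as covariate and leaving out each heifer. Named were the 3 members, miR-1271 (same seed as miR-96 by general knowledge), the 5 miRNAs most and 3 least like miR-182, the 2 most abundant tested miRNAs of each list and miR-451, miR-23a and miR-486. Others were named after their values were seen. The members and lists were chosen with earlier results of these data known. Intervals on counts cover counting error only, since reads carried no molecular identifiers. Mature sequences of the members were not used here.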

Additional observations from a re-analysis of the deposited data

Results flagged for a closer look

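In 6 of 20 groups of 8 libraries examined, 1 library lay far from the others by Dixon's criterion (gap over range above 0.526). Chance flags about 1 group in 20 where values are normally distributed. RPMM was skewed here, and miR-96 and miR-124a/b were at 0 in 5 of 8 libraries on Day 0. The 6 flags can therefore not be read against that rate. Heifer 21 was the highest on Day 0 for miR-96 (9.46 RPMM, gap 0.96 of the range), miR-184 (525 RPMM, 0.98), miR-9-5p (30.5 RPMM, 0.93) and miR-124a/b (8.30 RPMM, 0.93), all in the same library. The last 3 were chosen for their counts in that library, so their distance follows from the choice. Heifer 22 was the highest on Day 0 for miR-182 (111 RPMM, 0.61). Heifer 35 was the highest on Day 16 for miR-1271 (18.0 RPMM, 0.59). No cause was tested for any of these.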

How the results depend on the processing

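No alternative brought miR-182 or miR-183 past the threshold in any comparison. Of 172 fold changes recomputed under an alternative, 150 kept their direction and 22 changed sign, all within the 95% intervals of the report. The smallest adjusted p was 0.428 for miR-182 and 0.664 for miR-183. Without the heifer as a block, Day 0 against the later Days gave a log2 fold change of 0.15 for miR-182 (0.16 with the block) and −0.05 for miR-183 (−0.03 with the block), and dropping the block changed no call.

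For miR-182, Day 16 against Day 8 turned from 0.08 to −0.077 with total counts, −0.064 with limma on log2(RPMM + 1), −0.065 with limma on log2(RPMM + 0.1), and −0.064 with both the repeated-measures test and the exact test. Total counts moved the median of all 181 miRNAs by −0.19 for Day 16 against Day 0 and −0.17 against Day 8, and RPMM by −0.12 and −0.17. For miR-183, Day 0 against the later Days turned from −0.03 to 0.096 with total counts, 0.015 with total counts without miR-486, 0.0018 with limma on log2(RPMM + 0.1) and 0.0087 with the Day 0 library of heifer 21 aside. Leaving the Day 0 library of heifer 22 aside gave miR-182 0.027 (Day 8 against Day 0), 0.17 (Day 16 against Day 0) and −0.097 (Day 0 against the later Days), and miR-183 0.055 (Day 8 against Day 0).

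Leaving out each heifer in turn gave miR-182 a range of −0.36 to 0.054 for Day 8 against Day 0, −0.32 to 0.14 for Day 16 against Day 0, −0.032 to 0.18 for Day 16 against Day 8 and −0.10 to 0.30 for Day 0 against the later Days. For miR-183 the ranges were −0.29 to 0.058, 0.036 to 0.46, 0.20 to 0.49 and −0.26 to 0.083 in the same order. Direction changed without heifer 22 in 4 of these results, without heifer 16 in 1 (miR-182, Day 16 against Day 8), without heifer 35 in 1 (miR-182, Day 16 against Day 0) and without heifers 20, 21 or 34 in 1 (miR-183, Day 0 against the later Days).

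In the main comparison of Day 0 with the later Days, 5 of 181 miRNAs passed in edgeR, 15 in DESeq2, 3 in limma, 0 with the ratio as covariate and 38 with the Day 0 library of heifer 21 aside. Leaving that library aside also moved Day 8 against Day 0 from 2 to 34, Day 16 against Day 0 from 0 to 14 and the overall effect of Day from 0 to 23, and DESeq2 called 11, 3 and 8 in these. The cause of these shifts was not tested. miR-96 and miR-183 are limited by depth, and the interval of miR-182 in that comparison leaves room for 0.80-fold to 1.56-fold.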
